A study of Mus musculus with 9 samples.

Results

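The interferon-stimulated genes examined here were a set of 40 named mouse genes known to be induced by interferons or to carry their signal. They were found on the array by their platform gene symbol. This set and the gene lists used below were chosen with earlier results of these data known. Their counts beside those of all genes are therefore descriptions and not independent support. Of the 40 genes, 39 had a listed probe (80 of 45281 probes), and 29 passed the filter on dim probes and were tested among 11009 genes. The remaining gene with no listed probe, Ifi44, was not analysed here.

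The samples were 9 arrays (Illumina MouseWG-6 v2.0 BeadChips) of a primary culture of neural stem and progenitor cells (NSCs/NPCs) taken from the dentate gyrus of adult C57BL6 mice. Proliferating neurospheres (proliferation, 3 arrays) were floating spheres grown with the mitogens EGF and bFGF. For early differentiation (3 arrays, day 2) and late differentiation (3 arrays, day 7), the spheres were dissociated, the cells were plated on coated dishes and the proliferation medium was replaced with differentiation medium. Stage therefore cannot be told apart from the change of medium and from floating against adherent growth. The labels name no transgene and no interferon treatment, and they call the arrays of 1 stage biological replicates without naming the animals. The proliferation and day 7 arrays lay on 1 BeadChip and the day 2 arrays on another, so stage and BeadChip cannot be told apart wherever day 2 is compared.

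Interferons are secreted proteins by which cells report viral infection and inflammation. Type I interferons bind Ifnar1 with Ifnar2, and interferon gamma binds Ifngr1 with Ifngr2; both receptors act through Janus kinases on STAT proteins. Complexes that contain Stat2 and Irf9 bind the interferon-stimulated response element (ISRE), and the signal of interferon gamma also acts through the gamma-activated sequence (GAS). The genes they switch on block viral replication, modify proteins with Isg15 or feed antigen presentation, and many of them are also expressed at a low level without infection.

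The promoters of many members hold letters that match the elements through which interferon acts, and they are set beside the calls here. In RefSeq promoter windows of GRCm38.p6, which ran from 250 bases before to 50 bases after the gene start, 33 of the 40 members had an entry. The ISRE core, GAAANNGAAA on either strand (TTTCNNTTTC on the other), was present in 16 of the 33, against 3.99% of 27025 genes. The GAS letters, TTCNNNGAA, which read the same on both strands, were present in 12 of 33 members, against 9.55% of all genes. The ISRE core was found in 6 of 13 members that were called in at least 1 comparison, in 7 of 12 that were tested and not called, and in 3 of 8 that were not tested. A match is a description of these letters and not proof of a site. The following stretches are shown because they set members called higher beside members that hold the same letters and were either tested and not called or not detected, with the ISRE core in capitals; overlapping copies run together.
Ifit3, rose at day 2 and day 7, chr19:34583358-34583431 (+): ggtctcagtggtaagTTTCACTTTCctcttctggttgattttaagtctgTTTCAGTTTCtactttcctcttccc
Gbp2, rose at day 2 and day 7, chr3:142620589-142620628 (+): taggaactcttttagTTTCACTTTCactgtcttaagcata
Igtp, rose at day 2 and day 7, chr11:58199507-58199546 (+): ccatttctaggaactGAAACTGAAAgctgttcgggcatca
Rsad2, rose at day 7, chr12:26456548-26456587 (-): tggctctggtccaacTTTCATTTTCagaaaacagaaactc
Isg15, tested and not called, chr4:156200860-156200911 (-): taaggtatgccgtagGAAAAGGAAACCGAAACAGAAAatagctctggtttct
Gbp3, tested and not called, chr3:142559984-142560029 (+): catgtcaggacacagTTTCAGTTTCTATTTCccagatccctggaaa
Ifit1, not detected, chr19:34640770-34640828 (+): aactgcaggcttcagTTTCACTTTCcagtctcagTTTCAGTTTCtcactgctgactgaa
Oas1a, not detected, chr5:120907526-120907560 (-): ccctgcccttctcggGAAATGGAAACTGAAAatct

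Irf1 is shown for the other motif, since it held GAS letters (capitals) and no ISRE core in its window.
Irf1, rose at day 2 and day 7, chr11:53769909-53769947 (+): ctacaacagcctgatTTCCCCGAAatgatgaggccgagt

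Igtp held both, with GAS letters from 45 and the ISRE core from 34 bases before the gene start. In Bst2 the GAS letters overlapped the first ISRE core.

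The arrays detected 18310 to 19919 probes each. The first principal component, which held 78.0% of the variance, set the proliferation arrays against those of both later stages. The third, with 4.60%, set the array numbered replicate 3 apart in every stage. Calls of members that change without those arrays are given with both values. Cell cycle genes fell in differentiation (3 of 3 tested markers, median log2 fold change -4.28 at day 7). Of 7 astrocyte markers, 5 were called higher at day 2 and 4 at day 7 than in proliferation, among them Gfap (5.61 at day 2 and 4.38 at day 7) and Aqp4 (4.17 and 3.55), and their summed linear level was 10554 to 15932 in proliferation, 27130 to 30129 at day 2 and 25543 to 27500 at day 7. Of 3 tested oligodendrocyte markers, Olig1 fell by 0.93 at day 2 and by 1.85 at day 7. Olig2 was detected on 3, 1 and 0 of 3 arrays in proliferation, at day 2 and at day 7. The remaining marker, Sox10, went the other way. It was detected on no proliferation array, passed the filter through its differentiation arrays alone and was called higher at day 2 (fitted change 0.71). At day 7 its fitted change was 0.47 and was not called. Of 17 markers of microglia and macrophages, 15 had a probe and only Csf1r and Cd14 passed the filter. Aif1, Cx3cr1, Tmem119, P2ry12, Itgam, Ptprc, Trem2 and Tyrobp, which define these cells, did not pass it. The summed level of the tested pair was 45.7 to 63.0 in proliferation, 58.7 to 89.6 at day 2 and 68.6 to 211 at day 7, of which Cd14, a lipopolysaccharide co-receptor, accounted for the range (5.09, 5.38 and 4.69 on the log2 scale in proliferation, 6.07, 5.96 and 5.03 at day 2, and 7.55, 7.55 and 5.60 at day 7). None of 5 markers of T and natural killer cells passed the filter. The part of other cell types in the results below was not tested, and in a bulk culture fewer cells of a type and less RNA per cell cannot be told apart.

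The first question was whether members differed between differentiating cells and proliferating neurospheres. At day 7, 13 of the 29 tested members were called higher than in proliferation and none lower, where a call needed a Benjamini-Hochberg adjusted p under 0.05 in limma and a fold of at least 1.5. Over all 11009 genes, 17.6% were called higher and 16.2% lower in this comparison. The 13 were Ifit3, Gbp2, Igtp, Ifngr2, Oasl2, Ifit2, Parp14, Ifi27, Irf9, Irf1, Rsad2, Ifitm2 and Irf3. The median log2 fold change of the 29 was 0.55, against 0.01 over all genes, and 25 of the 29 were positive. At day 2, 12 members were called higher than in proliferation and none lower, against 16.8% of all genes called higher and 15.2% called lower, with a median of 0.38 against 0.00. Usp18 and Eif2ak2 were called at day 2 only, and Irf3, Rsad2 and Ifitm2 at day 7 only; the differences between the stages are tested further on. Without normalization between arrays the median of all genes moved to -0.31 at day 7 and -0.41 at day 2. There, 7 members were called higher and 2 lower at day 7, and 6 higher and 5 lower at day 2. The calls lost were those of Irf1, Irf3, Irf9, Ifi27, Rsad2 and Ifitm2 at day 7. At day 2 they were those of Ifit2, Irf1, Irf9, Ifi27, Usp18 and Eif2ak2. With the mean of the kept probes of each gene in place of its brightest, 10 members were called higher at day 7 and 10 at day 2. Both comparisons use the same 3 proliferation arrays. Usp18 passed the filter through its differentiation arrays alone and so had to differ; among the members detected in both stages of a comparison, 13 of 28 were called higher at day 7 and 11 of 27 at day 2. With the change of Usp18 set to the lower bound the median at day 7 was 0.51.

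**Figure D1:**
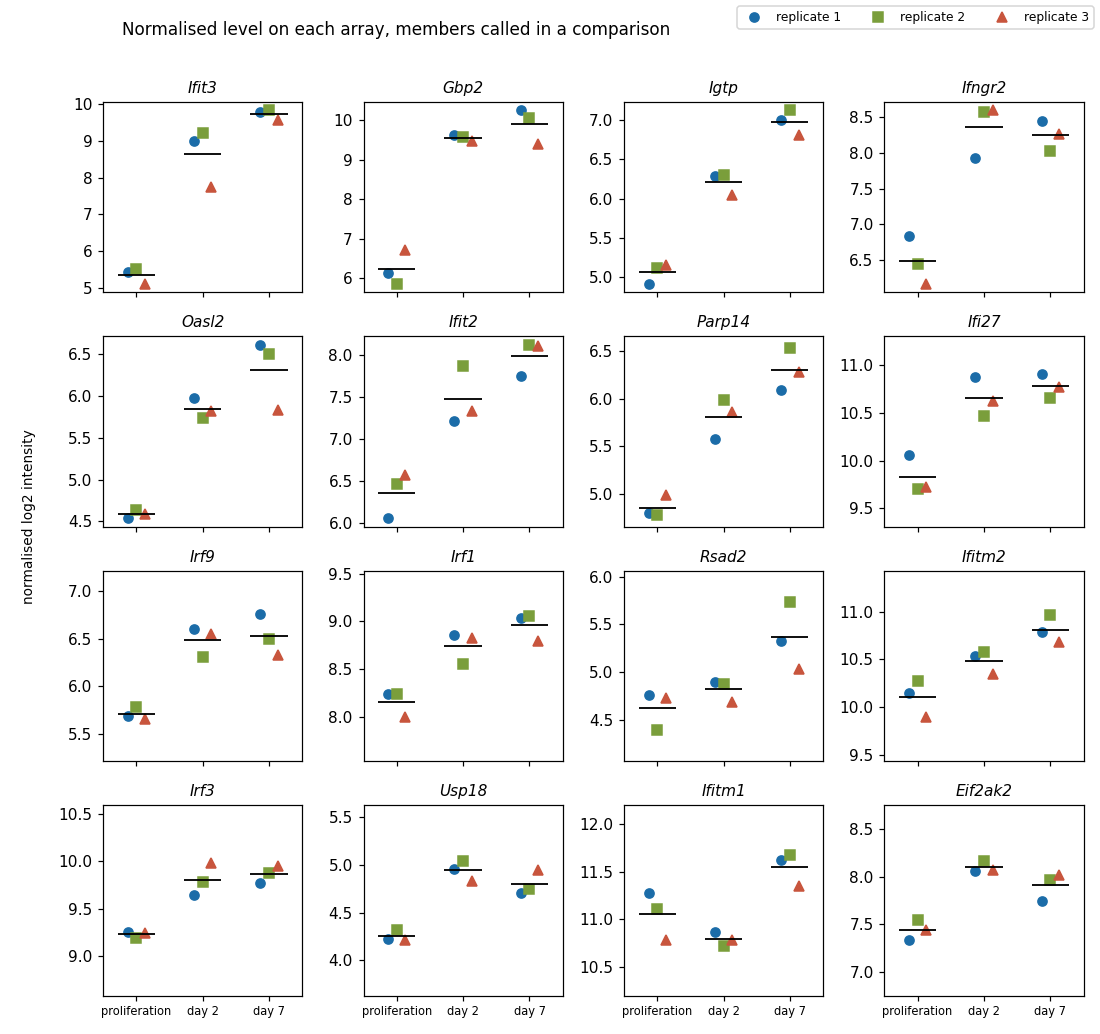
Normalised log2 intensity (vertical axis, own scale per panel) of the 16 members called in at least 1 comparison, in proliferation, at day 2 and at day 7; each point is 1 array, shaped by replicate number, and the line is the mean of 3. In every panel except those of Rsad2 and Ifitm1, all differentiation arrays lie above all proliferation arrays. The panels were chosen by their calls in these same comparisons, so this separation adds no support to the calls.

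Among the IFIT proteins, which bind viral RNA and block its translation, Ifit3 showed the largest change of any member at day 7. Its normalised log2 intensity was 5.45, 5.51 and 5.12 in proliferation, 8.99, 9.21 and 7.75 at day 2 and 9.79, 9.83 and 9.56 at day 7. The stages did not overlap, and the replicate 3 array at day 2 was well below its other two. The log2 fold change was 3.29 ± 0.31 at day 2 (SE, n = 3; limma adjusted p = 8.33e-06) and 4.37 ± 0.31 at day 7 (adjusted p = 8.74e-07), a 20.6-fold difference that ranked 15 among the rises of all genes. A second Ifit3 probe was not well above background in proliferation and was at least 3.40-fold higher at day 2 and at least 6.96-fold higher at day 7. Mouse Ifit3 has a near-identical copy, Ifit3b, and probe sequences that would tell the copies apart were not analysed here.

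Ifit2, the neighbour of Ifit3 on chromosome 19, had values of 6.06, 6.46 and 6.57 in proliferation, 7.22, 7.87 and 7.33 at day 2 and 7.76, 8.12 and 8.11 at day 7. All differentiation values exceeded all proliferation values, while day 2 and day 7 overlapped. Its log2 fold change was 1.11 ± 0.19 at day 2 (adjusted p = 0.000642) and 1.63 ± 0.19 at day 7 (adjusted p = 3.99e-05), and its second probe gave 1.16 and 1.56. The third IFIT gene on the array, Ifit1, was not detected on any of the 9 arrays.

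The interferon-inducible GTPases protect cells against intracellular pathogens, and the 4 of the set behaved differently from one another. Gbp2, a guanylate-binding protein, had log2 values of 6.13, 5.87 and 6.73 in proliferation, 9.63, 9.57 and 9.49 at day 2 and 10.25, 10.06 and 9.39 at day 7. Nearly all of its rise was therefore present at day 2, with a log2 fold change of 3.32 ± 0.24 (9.99-fold; adjusted p = 1.31e-06), and with 3.66 ± 0.24 at day 7 (12.6-fold; adjusted p = 5.62e-07). A dim second probe of Gbp2 was seen on 5 differentiation arrays only. It was at least 1.33-fold higher at day 7, and its signal at day 2 allowed no fold.

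Gbp3, which lies near Gbp2 on chromosome 3 with Gbp2b between them, was not called. It had 8.02, 7.66 and 8.13 in proliferation, 8.63, 8.31 and 7.48 at day 2 and 8.64, 8.38 and 7.62 at day 7, so both differentiation stages overlapped with proliferation through their replicate 3 arrays. Its log2 fold change was 0.21 ± 0.31 at day 2 (adjusted p = 0.604) and 0.28 ± 0.31 at day 7 (adjusted p = 0.476). Without the replicate 3 arrays of every stage it was 0.63 at day 2 and 0.67 at day 7, both past the threshold. These values are of its brightest probe. A second Gbp3 probe, also detected on all 9 arrays, gave 0.11 at day 2 and -0.03 at day 7 with all arrays included.

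Igtp, an immunity-related GTPase, had 4.92, 5.13 and 5.16 in proliferation, 6.30, 6.30 and 6.04 at day 2 and 7.00, 7.12 and 6.82 at day 7. The 3 stages were fully separated, each above the one before. The log2 fold change was 1.15 ± 0.12 at day 2 (adjusted p = 2.08e-05) and 1.91 ± 0.12 at day 7 (adjusted p = 4.28e-07). Irgm1, of the same family, was bright in proliferation already (mean 11.03) and its changes of 0.46 and 0.45 stayed under the fold of 1.5.

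Of the OAS family, whose members sense double-stranded RNA, Oasl2 had 4.54, 4.64 and 4.59 in proliferation, 5.98, 5.74 and 5.82 at day 2 and 6.61, 6.51 and 5.83 at day 7. All differentiation arrays exceeded all proliferation arrays, and the replicate 3 array at day 7 was level with day 2. The log2 fold change was 1.26 ± 0.18 at day 2 (adjusted p = 0.000168) and 1.73 ± 0.18 at day 7 (adjusted p = 1.57e-05). Of the 3 Oasl2 probes only 1 was kept, and the others were detected on no array. Oas1a was not detected on any array. The RNA sensors Ifih1 (MDA5) and Dhx58 (LGP2) were not tested: no probe of Ifih1 was detected on any array, and probes of Dhx58 on at most 1.

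The ISG15 system attaches the ubiquitin-like protein Isg15 to other proteins, and Usp18 removes it. The Isg15 transcript itself stayed at the detection limit, with 4.46, 4.52 and 4.31 in proliferation, 4.35, 4.20 and 4.41 at day 2 and 4.62, 4.42 and 4.37 at day 7. Its probe was detected on 2, 0 and 1 of 3 arrays in those stages and the change at day 7 was 0.04 ± 0.11 (adjusted p = 0.801). Since no array detected it at day 2, that stage has only an upper bound. Usp18 had 4.22, 4.31 and 4.21 in proliferation, where it was not well above background, 4.96, 5.04 and 4.83 at day 2 and 4.71, 4.75 and 4.95 at day 7. Both differentiation stages lay above proliferation without overlap. Of the 2 Usp18 probes only 1 was kept, and the other was detected on no array. Its level was at least 1.40-fold higher at day 2 and at least 1.27-fold higher at day 7, both bounds under the fold of 1.5, although its fitted change at day 2 (0.69) counted among the calls. In the deposited value table its fitted log2 change at day 2 was 0.04 and was not called.

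Parp14, a mono-ADP-ribosyltransferase, had 4.80, 4.78 and 4.99 in proliferation, 5.57, 5.98 and 5.86 at day 2 and 6.10, 6.53 and 6.28 at day 7. The 3 stages did not overlap. It rose by 0.95 ± 0.14 at day 2 (adjusted p = 0.000232) and by 1.45 ± 0.14 at day 7 (adjusted p = 1.06e-05). Of the 3 Parp14 probes only 1 was kept, and the others were detected on no array. Probes of its relative Parp9 were detected on at most 1 array and Parp9 was not tested.

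Of the 5 transcription factors, 4 were tested, 2 were called higher at day 2 and 3 at day 7. Irf9, the DNA-binding subunit of the ISRE complex, had 5.69, 5.78 and 5.66 in proliferation, 6.60, 6.30 and 6.55 at day 2 and 6.76, 6.50 and 6.33 at day 7. Day 2 and day 7 overlapped and both lay above proliferation, by 0.77 ± 0.13 (adjusted p = 0.000492) and 0.82 ± 0.13 (adjusted p = 0.000314). Both calls were lost with an offset of 50 (0.52 and 0.55) and without normalization between arrays (0.28 and 0.42). A second probe of Irf9 was not well above background in proliferation and was at least 1.19-fold higher at day 2 and at least 1.26-fold higher at day 7.

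Irf1, an activator downstream of interferon gamma, had 8.24, 8.24 and 8.002 in proliferation, 8.86, 8.55 and 8.83 at day 2 and 9.04, 9.06 and 8.80 at day 7. It rose by 0.59 ± 0.12 at day 2 (adjusted p = 0.00231), which is a fold of 1.503 and right at the threshold, and by 0.81 ± 0.12 at day 7 (adjusted p = 0.000263). Its 3 other kept probes gave 0.08 to 0.45 at day 2 and 0.20 to 0.75 at day 7, and the mean of the probes was not called in either comparison. The day 2 call was lost when proliferation replicate 3, day 2 replicate 1 or day 2 replicate 3 was left out (0.51 to 0.55). It was also lost without the replicate 3 arrays of every stage (0.47).

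Irf3, which cells activate when they sense viral nucleic acid, had 9.26, 9.19 and 9.24 in proliferation, 9.65, 9.78 and 9.98 at day 2 and 9.77, 9.88 and 9.94 at day 7. The values did not overlap with proliferation, and the change of 0.57 ± 0.11 at day 2 missed the fold of 1.5 narrowly while that of 0.64 ± 0.11 at day 7 passed it (adjusted p = 0.000482). With the mean of its 3 probes the change at day 7 was 0.43. Stat2, the partner of Irf9, changed by 0.19 ± 0.12 at day 2 and 0.31 ± 0.12 at day 7 and was not called. Irf7, the main amplifier of type I interferon production, was not detected on any array.

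Among the receptor subunits, Ifngr2 of the interferon gamma receptor had 6.83, 6.45 and 6.17 in proliferation, 7.92, 8.57 and 8.60 at day 2 and 8.45, 8.03 and 8.26 at day 7. The differentiation arrays lay above all proliferation arrays, by 1.88 ± 0.21 at day 2 (adjusted p = 3.26e-05) and 1.77 ± 0.21 at day 7 (adjusted p = 4.48e-05). The other two probes of Ifngr2, also detected on all 9 arrays, went the other way, with -0.32 each at day 2 and with -0.14 and -0.24 at day 7. With the mean of the 3 probes the changes were 0.41 and 0.46, and neither was called, so the rise of Ifngr2 rests on 1 probe.

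Ifnar2 of the type I receptor changed by -0.38 ± 0.18 at day 2 and -0.16 ± 0.18 at day 7 and was not called. Its second probe gave -0.65, which passed both thresholds, and -0.46. Ifnar1, the other type I subunit, was not detected on any array.

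**Figure D2:**
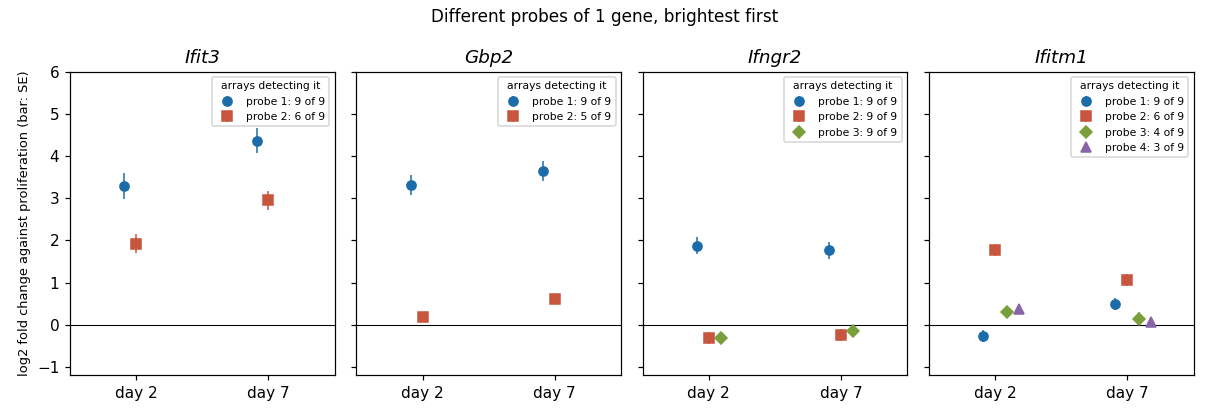
Log2 fold change against proliferation (vertical axis; bar, SE) at day 2 and day 7 for each kept probe of Ifit3, Gbp2, Ifngr2 and Ifitm1, with the number of arrays that detected the probe. Both Ifit3 probes lie above 0, whereas only the brightest of the 3 Ifngr2 probes does, and the brightest Ifitm1 probe is lower at day 2 than the dimmer ones.

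The IFITM proteins, which hinder the fusion of viruses with endosomes, were bright in every stage. Ifitm2 had 10.15, 10.28 and 9.90 in proliferation, 10.53, 10.58 and 10.35 at day 2 and 10.79, 10.96 and 10.68 at day 7. It rose by 0.70 ± 0.13 at day 7 (adjusted p = 0.000776) while its 0.38 ± 0.13 at day 2 was not called. Without normalization between arrays its change at day 7 was 0.15 and was not called. Ifitm1 had 11.28, 11.11 and 10.78 in proliferation, 10.87, 10.72 and 10.78 at day 2 and 11.62, 11.67 and 11.35 at day 7. Its mean was lowest at day 2, which overlapped with proliferation, and highest at day 7, with changes of -0.27 ± 0.14 and 0.49 ± 0.14 that were not called. These values are of its brightest probe. A second probe went the other way at day 2: it was not well above background in proliferation and was at least 2.99-fold higher at day 2 and at least 1.83-fold higher at day 7. The other two kept probes, also undetected in proliferation, were at least 1.08-fold and 1.09-fold higher at day 2. Ifitm3 averaged 11.83 in proliferation and changed by 0.19 at day 2 and 0.41 at day 7, neither of them called.

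The other antiviral effectors were mostly below the threshold. Rsad2 (viperin), an enzyme that makes a chain-terminating nucleotide, had 4.76, 4.39 and 4.73 in proliferation, 4.90, 4.88 and 4.69 at day 2 and 5.33, 5.74 and 5.03 at day 7. Day 2 overlapped with proliferation and day 7 did not, with changes of 0.19 ± 0.17 and 0.74 ± 0.17 (adjusted p = 0.00394). Its probe was detected on 2 of 3 proliferation arrays and on all 3 of each later stage, and its proliferation and day 2 values lay close to background. The call at day 7 was lost without day 7 replicate 2 (0.55), with an offset of 50 (0.36), without normalization between arrays (0.56) and in the deposited value table (0.64, adjusted p = 0.0871).

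Eif2ak2 (PKR), the kinase that stops translation on double-stranded RNA, had 7.34, 7.54 and 7.44 in proliferation, 8.06, 8.16 and 8.07 at day 2 and 7.74, 7.96 and 8.02 at day 7. It rose at day 2 by 0.66 ± 0.11 (adjusted p = 0.000402), a call that was lost with an offset of 50 (0.57) and without normalization between arrays, where the change was 0.01 (adjusted p = 0.933), and its 0.47 ± 0.11 at day 7 stayed under the fold of 1.5. Adar, an RNA-editing enzyme, changed by 0.27 at day 2 and 0.56 at day 7, and Mx2, a dynamin-like GTPase, by 0.37 at both. Bst2 (tetherin) gave -0.38 and -0.16, Samhd1, a dNTP hydrolase, -0.34 and -0.30, and the ubiquitin ligase Trim25 -0.16 and -0.20. Mx1 was not detected on any array.

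Ifi27, a mitochondrial protein, had 10.06, 9.70 and 9.72 in proliferation, 10.88, 10.46 and 10.62 at day 2 and 10.90, 10.66 and 10.78 at day 7, and rose by 0.83 ± 0.14 (adjusted p = 0.000526) and 0.95 ± 0.14 (adjusted p = 0.00018). Its second probe gave 0.86 and 1.06. Without normalization between arrays the changes of Ifi27 were 0.11 and 0.39, and neither was called. The subunits of the PA28 proteasome activator, Psme1 and Psme2, were not called, with 0.24 and 0.51 for Psme1 and 0.03 and 0.25 for Psme2 at day 2 and day 7. Probes of Ifi35 and Xaf1 were each detected on 1 array.

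Altogether 10 members with a probe were not tested. Of these, Ifit1, Irf7, Oas1a, Mx1, Ifih1 and Ifnar1 were detected on no array, and Ifi35, Xaf1, Dhx58 and Parp9 had a probe detected on 1 array only. Their normalised log2 values lay between 4.12 and 4.60 in all stages, and a change was not detectable at this signal.

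**Figure D3:**
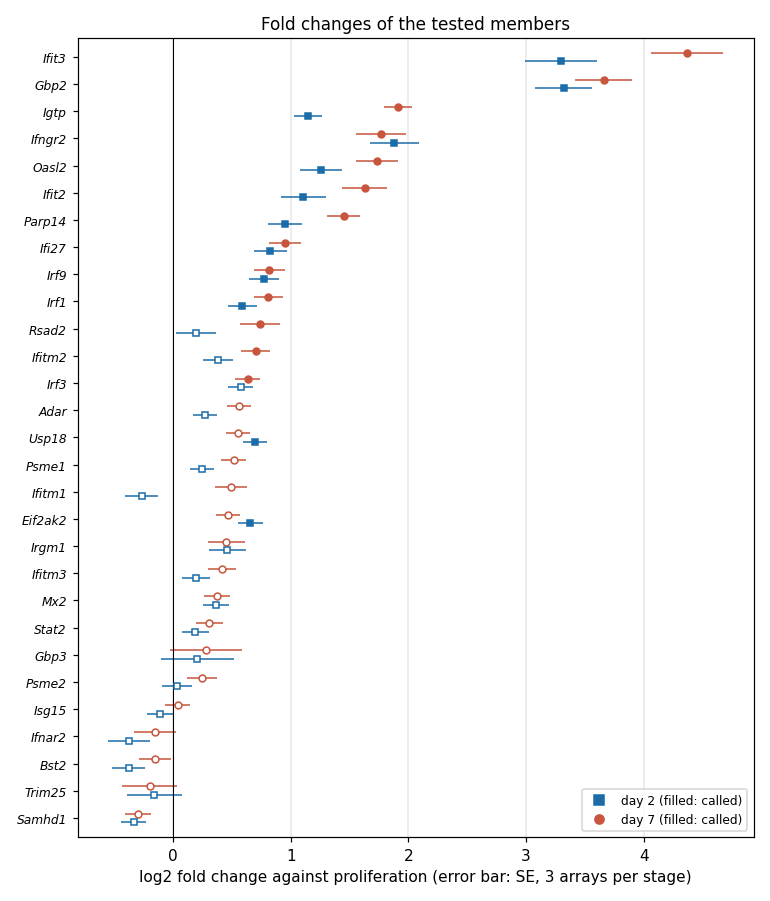
Log2 fold change against proliferation (horizontal axis; bar, SE) of the 29 tested members at day 2 (squares) and day 7 (circles), filled where called. Each gene is shown by its brightest kept probe. Ifit3 and Gbp2 stand at 3.29 to 4.37, 5 further members lie between 0.95 and 1.91 at both stages, and no filled symbol lies below 0. Of the 5, Ifngr2 had other probes that fell, and a second Ifnar2 probe, not shown, was called lower at day 2 (-0.65). Without normalization between arrays 2 members were called lower at day 7 and 5 at day 2.

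The second question was whether members differed between the differentiation stages. Day 7 was called higher than day 2 for 2 of 29 members, Igtp and Ifitm1, and lower for none, against 1.57% of all genes called higher and 2.35% called lower. The median log2 difference was 0.22, with 24 of 29 positive, against 0.01 over all genes. Igtp was higher at day 7 by 0.76 ± 0.12 (adjusted p = 0.00619). Ifitm1 was higher by 0.76 ± 0.14 (adjusted p = 0.0115), but its second probe, detected on 6 arrays, was lower at day 7 by 0.71, and the mean of its probes gave -0.10 without a call. The Ifitm1 call was also lost without day 2 replicate 2 (0.73, adjusted p = 0.0507) and with background subtraction (0.78, adjusted p = 0.0655).

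Ifit3 was higher at day 7 than at day 2 by 1.07 ± 0.31 and missed the threshold (adjusted p = 0.0614). With replicate number as a block the adjusted p was 0.0123, which made 3 called members, and without day 2 replicate 3 the difference was 0.62 and was called. Parp14 (0.50, adjusted p = 0.0605), Rsad2 (0.54, adjusted p = 0.0842), Ifit2 (0.52, adjusted p = 0.129) and Oasl2 (0.47, adjusted p = 0.14) were also higher at day 7 and not called. Without day 7 replicate 3, Oasl2 (0.71) and Rsad2 (0.71) passed and 4 members were called. Without the replicate 3 arrays of every stage, Ifit3 (0.70) and Oasl2 (0.70) passed and 4 members were called. For Usp18 (-0.14 ± 0.10) and Eif2ak2 (-0.19 ± 0.11), which were called against proliferation at day 2 only, the stages did not differ beyond the threshold, nor did they for Irf3 (0.06 ± 0.11) and Ifitm2 (0.32 ± 0.13).

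Other genes of the pathway were read from 2 lists outside the set. Of 44 interferon signalling genes, 23 were tested, and 8 were called higher and 1 lower at day 7 than in proliferation (median 0.34). Their shares called higher and lower were 34.8% and 4.35%, against 17.6% and 16.2% of all genes. At day 2, 4 were called higher and 2 lower (median 0.24), or 17.4% and 8.70%, of which the share called higher was near the 16.8% of all genes. Socs3, the feedback inhibitor of cytokine receptors, rose by 0.90 at day 2 and 1.502 at day 7, and Tlr3, a sensor of double-stranded RNA, by 0.89 and 1.27. Ifngr1, the partner of Ifngr2, rose by 0.95 and 1.01. The kinase Jak1 rose by 1.70 at day 2 and by 0.90 at day 7, and was lower at day 7 than at day 2 (-0.80, adjusted p = 0.0383), a difference whose call was lost in 12 of 22 alternative settings, among them leaving out any 1 of 6 arrays (proliferation replicate 1, day 2 replicates 1, 2 and 3, day 7 replicates 1 and 2). Tlr4, the lipopolysaccharide receptor, fell by 1.22 at day 2 and by 0.74 at day 7. The Socs3 call at day 2 was lost in 12 of 22 alternative settings and the Tlr4 call at day 7 in 10. Il10rb, a receptor subunit shared by interferon lambda, fell by 0.60 at day 2 and was higher at day 7 than at day 2 (0.67, adjusted p = 0.0143), a call lost without day 7 replicate 2 or day 2 replicate 2. Among the ligands, Ifnb1 and Ifng did not pass the filter. Ifna1 passed it close to background (means of 4.66 in proliferation, 4.59 at day 2 and 4.82 at day 7) and was not called.

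**Figure D4:**
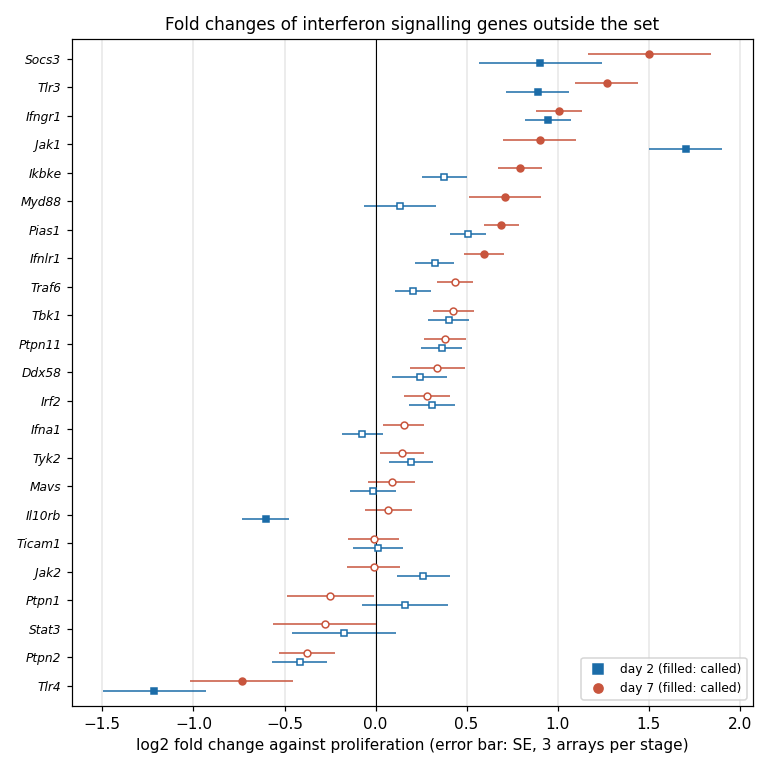
Log2 fold change against proliferation (horizontal axis; bar, SE) of the 23 tested interferon signalling genes outside the set at day 2 (squares) and day 7 (circles), filled where called. Socs3, Tlr3, Ifngr1 and Jak1 are filled to the right of 0 at both stages and Tlr4 to the left.

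Of 71 further genes known to be induced by interferon, 26 were tested, and 10 were called higher and 2 lower at day 7 than in proliferation (median 0.34), or 38.5% and 7.69% against 17.6% and 16.2% of all genes. At day 2, 7 were called higher and 3 lower (median 0.21), or 26.9% and 11.5% against 16.8% and 15.2%. The genes called higher at both stages include Uba7, which was detected on no proliferation array and so had to differ. Its lower bound at day 2, 1.38-fold, was under the fold needed for a call. For this list and for the signalling genes, shares limited to genes detected in both stages were not computed. Irgm2, a GTPase next to Igtp on chromosome 11, rose by 1.57 at day 2 and 2.12 at day 7. Cmpk2, a nucleotide kinase next to Rsad2 on chromosome 12, rose by 1.71 and 2.06. The chemokine Cxcl10 was called at day 7 only (1.98), with 4.89, 4.69 and 4.32 in proliferation, 5.84, 5.18 and 4.33 at day 2 and 6.86, 7.10 and 5.88 at day 7; it was higher at day 7 than at day 2 by 1.497 (adjusted p = 0.0409), and this call was lost in 11 of 22 settings, including the removal of any 1 of 6 arrays (proliferation replicates 1 and 2, day 7 replicates 1 and 2, day 2 replicates 2 and 3). On the Cd14 probe, as on the Cxcl10 probe, the replicate 3 array was the lowest of each stage.

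Uba7, the enzyme that activates Isg15, was not well above background in proliferation, passed the filter through its differentiation arrays alone and was at least 1.38-fold higher at day 2 and at least 2.08-fold higher at day 7. Psmb10, an immunoproteasome subunit, fell by 0.95 at day 2. Ifi27l2a, the neighbour of Ifi27 on chromosome 12, fell by 0.94 at day 2 and by 0.77 at day 7, while Ifi27 rose. Gbp7, the neighbour of Gbp3, fell by 0.59 at day 7 and was lower there than at day 2 (-0.71). The calls at day 7 were lost in 8 of 22 alternative settings for Ifi27l2a and in 6 for Gbp7, with proliferation replicate 1 or day 7 replicate 1 left out in both cases.

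The replicate 3 arrays were the lowest of their stage for 15 of the 29 tested members in proliferation, 11 at day 2 and 15 at day 7, against 37.1%, 35.5% and 35.1% of all genes, and the highest for 6, 10 and 7. The gap between replicate 3 and the mean of the other two was widest at day 2 for Ifit3 (-1.35) and Gbp3 (-0.99), and at day 7 for Gbp3 (-0.89), Gbp2 (-0.76) and Oasl2 (-0.73), while Gbp2 in proliferation was above the other two by 0.73. Without the replicate 3 arrays 14 members were called at day 7 and 12 at day 2, and no member was called lower. Gbp3, by its brightest probe, was added at day 7, and at day 2 Gbp3 was added while Irf1 lost its call.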

How the data were processed

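Total RNA of 9 samples was labelled and hybridised, 1 array per sample. The deposited table held, as exported by the authors from GenomeStudio, the intensity (mean bead signal) and the detection p-value of each probe on each array; these intensities still included the background and were not scaled between arrays. The deposited value table held background-subtracted intensity scaled by the authors to 1 mean on every array, and served only as an alternative.

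The background was modelled from the detection p-values with limma 3.58.1 in R 4.3.3 (normexp, offset 16, which compresses changes of dim probes), and the values were quantile normalized and put on the log2 scale. Probes with a detection p under 0.05 on at least 3 arrays were kept (20935), and a gene was represented by its kept probe of highest mean (11009 genes). All 9 arrays entered 1 linear model with a term for each stage, the 3 comparisons were its contrasts, and p-values were Benjamini-Hochberg adjusted over all genes. Where a probe was undetected on every array of a stage, the change is a lower bound, with values in that stage raised to the lowest detected signal of each array. Precision is limited by the number of arrays, and p-values measure the spread between these samples, since it is not stated whether they came from separate cultures. The pipeline was tested on simulated data.

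Members and gene lists were chosen with earlier results of these data known. All 40 members are accounted for by role, with values on every array for those called in a comparison; values of Isg15 and Gbp3 on every array were added after their values were seen. Same-numbered arrays correlated in their deviations from the stage means at 0.239, 0.204 and 0.308 between day 2 and proliferation and at 0.318, 0.172 and 0.386 between day 7 and day 2, above the limit of 0.1 set for pairing, and at 0.0642, 0.0794 and 0.142 between day 7 and proliferation, which did not meet it. The model held no pairing term, and a replicate block was tried as an alternative. Others were the normalization, offset, background treatment, filter, probe summary, call rule and leaving out each array; leaving out the replicate 3 arrays of every stage was added after seeing the data. Promoter windows were taken from RefSeq (GRCm38.p6). The columns of the value table carried no comparisons of the authors.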

Additional observations from a re-analysis of the deposited data

Results flagged for a closer look

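For 2 members the change against proliferation at day 7 differed from that at day 2 by a test of the difference itself (limma, day 7 minus day 2). Igtp was higher at day 7 by 0.76 on the log2 scale (adjusted p = 0.00619), in 3 of 3 arrays above every day 2 array. With an offset of 50 the difference was 0.56, under the fold of 1.5. Ifitm1 was higher at day 7 by 0.76 (adjusted p = 0.0115), also in 3 of 3 arrays, on its brightest probe. Its second probe was lower at day 7 by 0.71 (adjusted p = 0.017 over probes), and the mean of its kept probes differed by -0.10. The call of Ifitm1 was lost without day 2 replicate 2 (0.73) and with background subtraction (0.78). The day 2 arrays lay on another BeadChip than the day 7 arrays, so in both results the stage cannot be told apart from the chip.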

How the results depend on the processing

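In 22 alternative settings, 1825 of 1911 values of single members kept their side of the threshold. Of the others, 34 lost a call, 49 gained one and 3 reversed. A reversal was a change of sign with a call in at least 1 of the 2 settings compared. Values called in neither counted among the 1825 even where their sign changed, as for Gbp3, Ifitm2 and Psme1 at day 2. Without normalization between arrays, where the median of all genes shifted to -0.31 at day 7 and -0.41 at day 2 against proliferation, 7 members were called higher and 2 lower at day 7 (median 0.11) and 6 higher and 5 lower at day 2 (median -0.065); Irf1 (-0.063) and Ifitm3 (-0.62) reversed at day 2. Averaging the kept probes reversed Ifitm1 between day 7 and day 2 (-0.10). With no minimum fold, 22 members were called higher and 1 lower at day 7, and 2 lower at day 2. With averaged probes, 10 were called higher at day 7 and 10 at day 2. With an offset of 50, 11 were called higher at day 7, 7 at day 2 and 1 between day 7 and day 2. Background subtraction with scaling to the 75th percentile also left 1 between day 7 and day 2, and leaving out the replicate 3 arrays of every stage gave 4. The members' median at day 7 (0.55) was 0.52 with cyclic loess, 0.45 with an offset of 50, 0.62 with background subtraction, 0.53 from the deposited value table, 0.41 without a filter, 0.46 with averaged probes and 0.58 without the replicate 3 arrays. At day 2 (0.38) it was 0.42, 0.29, 0.49, 0.31 and 0.19 in the first 5 of these settings, 0.42 with a stricter filter and 0.35 without the replicate 3 arrays. Between day 7 and day 2 (0.22) it was 0.11 with an offset of 50, 0.32 with background subtraction and 0.079 without a filter. Leaving out each array in turn gave 13 to 15 members called higher at day 7 (median 0.54 to 0.59), 11 to 13 at day 2 (0.30 to 0.45) and 1 to 4 between day 7 and day 2 (0.16 to 0.25). The count of 4 came without day 7 replicate 3 and that of 1 without day 2 replicate 2, which ended the call of Ifitm1. With replicate number as a block, 13 and 12 members were called higher against proliferation and 3 between day 7 and day 2, where Ifit3 was added; no other call changed. Of the 2 further lists, with an offset of 50 the calls among other induced genes numbered 5 at day 7 (against 12) and 4 at day 2 (against 10), and those among signalling genes 3 at day 2 (against 6); without normalization 6 other induced genes were called at day 2, and with no minimum fold 12 signalling genes. Between day 7 and day 2, 2 signalling and 3 other genes were called, and the alternatives gave 0 to 4 and 1 to 7. The causes were not tested. Signal over background limits the 10 untested members and the tested members not detected on all 9 arrays, which were Isg15, Usp18, Rsad2 and Mx2.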
